A study of Glycine max with 6 samples.

Results

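The genes described here encode enzymes of phenylpropanoid, flavonoid and isoflavonoid synthesis. They were taken as all soybean probe sets whose gene symbol in the platform annotation begins with PAL, C4H, 4CL, CHS and a digit, CHI, CHR, F3H, F3'H, F3'5'H, FLS, DFR, ANS, ANR, IFS, IFR, HID or UGT78. This gave 71 of 37593 soybean probe sets, a probe set being the group of short probes that together read 1 transcript. Of these, 66 carried 1 symbol and named 32 genes, and 5 carried several symbols and are given without a single gene name. No symbol beginning with F3'H or F3'5'H was matched. The prefix CHI also took in CHIA1, a chitinase of another function, which leaves 70 probe sets of the pathway.

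The tissue was the soybean (Glycine max) cotyledon, the storage organ of the seed, collected at 150 mg. The study set 2 independent transgenic lines, in which RNA interference (RNAi) was used to suppress seed storage proteins, beside a nontransgenic control that 1 label calls Jack, the name of a soybean cultivar. Each of RNAi line 1, RNAi line 2 and the control was 1 sample on 2 technical replicate arrays. The storage protein genes the construct was aimed at, its promoter, the variety of the RNAi lines and the number of seeds in a sample are stated in none of the labels.

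Phenylpropanoid synthesis starts from phenylalanine, which phenylalanine ammonia-lyase (PAL), cinnamate 4-hydroxylase (C4H) and 4-coumarate:CoA ligase (4CL) turn into an activated cinnamic acid shared by lignin and flavonoid synthesis. Chalcone synthase (CHS), alone or with chalcone reductase (CHR), and chalcone isomerase (CHI) then build the flavonoid skeleton. From there flavanone 3-hydroxylase (F3H), flavonol synthase (FLS), dihydroflavonol reductase (DFR), anthocyanidin synthase (ANS), anthocyanidin reductase (ANR) and a UGT78 glucosyltransferase lead to flavonols, anthocyanins and proanthocyanidins, pigments that in soybean are known from the seed coat. Isoflavone synthase (IFS) and 2-hydroxyisoflavanone dehydratase (HIDH) lead instead to isoflavones, which soybean cotyledons store, and isoflavone reductase (IFR) acts on the way from isoflavones to pterocarpan defence compounds.

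Values are probe set signals on a linear scale. By array, the median of all signals lay between 57.8 and 72.4, and the 95th percentile of probe sets made for other organisms, used here as background, between 68.4 and 91.7. A probe set was tested if it lay above background on both arrays of at least 1 sample, which left 27460. Among the storage tissue markers, summed signals of 28 probe sets (those of SBPRP and LOX10, which the symbol patterns also matched, included) lay between 528774 and 687375 on RNAi arrays and between 860817 and 866845 on control arrays. The glycinin gene GY3, a storage protein gene, had signals of 1640 to 1892 on the RNAi arrays, against 17948 and 20903 on the control arrays, the largest fall of that list. Of its 25 tested probe sets 7 fell and 1 rose at an adjusted p below 0.05, beside 0.594% and 1.05% of all tested probe sets. At an unadjusted p below 0.05 there were 9 lower and 6 higher, beside 14.7% and 18.5%. The one that rose was SBP65 (log2 difference 1.71, adjusted p = 0.0488), and GY7 (1.04) and KTI-2 (0.52) also stood higher without passing the adjusted threshold. Summed signals of 10 seed coat marker probe sets of 6 genes lay between 12474 and 13951 on RNAi arrays and between 24213 and 25462 on control arrays. Of the 7 tested probe sets of that list, 1 rose and 2 fell at an adjusted p below 0.05, beside 1.05% and 0.594% of all tested. At an unadjusted p below 0.05, 1 was higher and 6 lower, beside 18.5% and 14.7%. SCB1 rose (log2 difference 2.10) while PRP2, at 1 probe set, and SBPRP fell (log2 differences -1.51 and -1.43). The other tested PRP2 probe set had -1.16 without passing the adjusted threshold. None of the 10 probe sets was listed at 0, and their part in the results below was not tested. In bulk tissue, fewer cells of a type and less RNA per cell cannot be told apart.

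The main comparison set both RNAi lines against the control. Of the 71 members, 52 were tested, 42 of them above background on all 6 arrays. Differences are of log2(signal + 16), RNAi lines minus control, tested with limma on 1 mean per sample, with Benjamini-Hochberg adjustment over all tested probe sets, and a member is called at an adjusted p below 0.05. DFR1, F3H and 4CL1 rose, each at 1 probe set, and 0 members fell. With no filter on dim probe sets limma called 0 members. All tested soybean probe sets were called higher in 1.05% and lower in 0.594%. At an unadjusted p below 0.05, 19 members stood higher and 8 lower, beside 18.5% and 14.7% of all tested. All 4 RNAi arrays lay above both control arrays for 22 members and below both for 10, beside 25.9% and 23.6% of all tested. In the other 20 members the arrays of the RNAi lines and of the control overlapped. The median difference of the tested members was 0.21, against 0.02 over all tested probe sets, and the median size of a difference, whatever its sign, was 0.44 against 0.26.

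**Figure D1:**
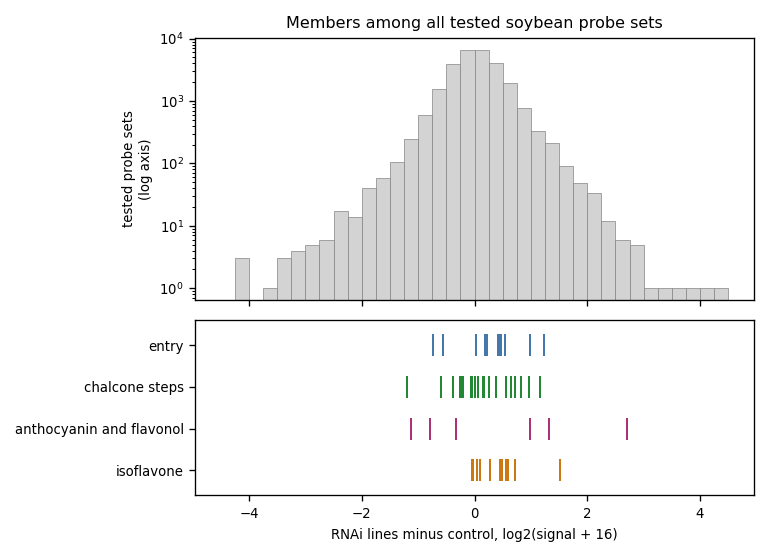
Upper panel: all tested soybean probe sets by their difference between RNAi lines and control in log2(signal + 16), in bins, with their number on a log axis. Lower panel: each vertical mark is 1 tested member on the same axis, by pathway step. Members run from -1.20 to 2.71 within a background from -4.24 to 4.41.

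The fit had 1 residual degree of freedom, which came from the difference between the 2 lines. The control entered as 1 mean and was assumed to vary as the lines do. Standard errors and p-values therefore do not measure variation of the control. At the called 4CL1 probe set the SE was 0.107, against 0.588 with arrays as replicates (technical spread only). The 3 called members had adjusted p-values of 0.0488 to 0.0498, close to the threshold, the number called was 0 without any 1 of the 4 RNAi arrays, 6 without control replicate 1 and 7 without control replicate 2, and it was 26 when the spread was modelled by signal level. All differences are relative to the deposited scale of whole arrays. With arrays scaled by the added poly-A RNAs (spikes) instead, the median tested probe set moved by 1.48 and all 17 members with a difference below 0 turned above 0.

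**Figure D2:**
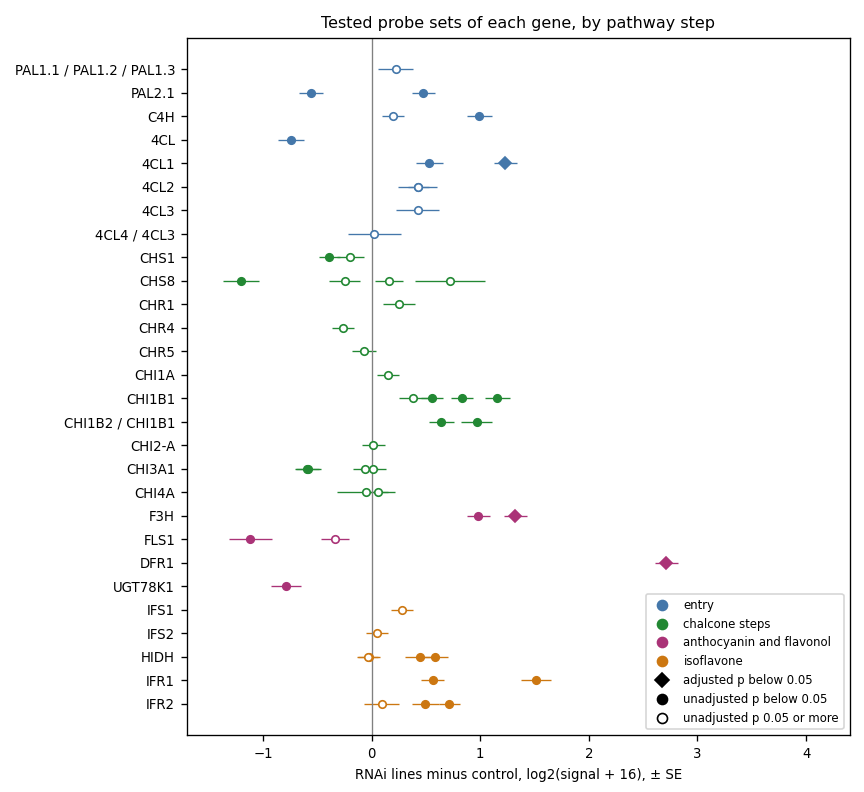
Each marker is a tested probe set, placed by its difference between RNAi lines and control in log2(signal + 16) with its standard error, on the row of its gene, coloured by pathway step, filled at an unadjusted p below 0.05 and open otherwise. The 3 diamonds are the members with an adjusted p below 0.05, 4CL1, F3H and DFR1 (the last below background in the control), and all markers left of 0 move right of it when the spikes set the scale.

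In the entry steps, 12 of 15 probe sets were tested, and the median difference was 0.43. Of these, 1 was called higher and 0 lower, beside 1.05% and 0.594% of all tested probe sets. The PAL probe sets did not run one way. PAL2.1, at its brightest probe set, had signals of 6806 and 8236 in line 1 and 5530 and 8723 in line 2, against 10466 and 10754 in the control. All RNAi arrays were lower there, and the arrays of each line differed more from each other than those of the control (log2 difference -0.56, SE 0.11, adjusted p = 0.0805). A further probe set of PAL2.1 had 1967 and 2118 in line 1 and 2044 and 1803 in line 2, against 1427 and 1410 in the control, so that all RNAi arrays were higher (log2 difference 0.48, SE 0.11, adjusted p = 0.0913). A probe set shared by PAL1.1, PAL1.2 and PAL1.3 had a difference of 0.22 with overlapping arrays.

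C4H, the hydroxylase of the next step, had signals of 1814 and 1722 in line 1 and 1577 and 1690 in line 2, against 861 and 832 in the control. The 4 RNAi arrays lay well above both control arrays, with a difference of 0.99 (SE 0.11) and an adjusted p of 0.0538. At the other C4H probe set, made from the same target sequence by its name, arrays overlapped and the difference was 0.19 (adjusted p = 0.269).

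Of the 4CL genes, whose products attach coenzyme A, 4CL1 rose at 1 probe set. The name of that probe set ends in a suffix that marks, by the maker's naming, probes shared by several transcripts. Signals there were 190.0 and 177 in line 1 and 154 and 191 in line 2, against 22.7 and 159 in the control. The control arrays disagreed, 1 being below background and the other inside the range of the RNAi arrays. This probe set thus entered the test through the RNAi lines alone, where it is high. Its p-value is not independent of that choice, and with no filter the adjusted p by limma was 0.193. The difference was 1.23 (SE 0.11, adjusted p = 0.0498) with both control arrays and 0.14 (adjusted p = 0.408) without control replicate 1, the dim one; without control replicate 2 it was 2.32. The brighter probe set of 4CL1 had 530 and 549 in line 1 and 702 and 520 in line 2, against 358 and 425 in the control, all RNAi arrays higher (difference 0.53, adjusted p = 0.0955).

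The gene listed as 4CL stood on the other side. It had 853 and 842 in line 1 and 822 and 715 in line 2, against 1398 and 1319 in the control, with every RNAi array lower (difference -0.74, SE 0.12, adjusted p = 0.0674; 0.77 when scaled to the spikes). The probe sets of 4CL2 had 0.43 and 0.42, and the RNAi arrays were above both control arrays at the first of them only. 4CL3 had 0.43 and a probe set shared by 4CL3 and 4CL4 had 0.03, both close to background. The former entered the test through line 2 alone.

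**Figure D3:**
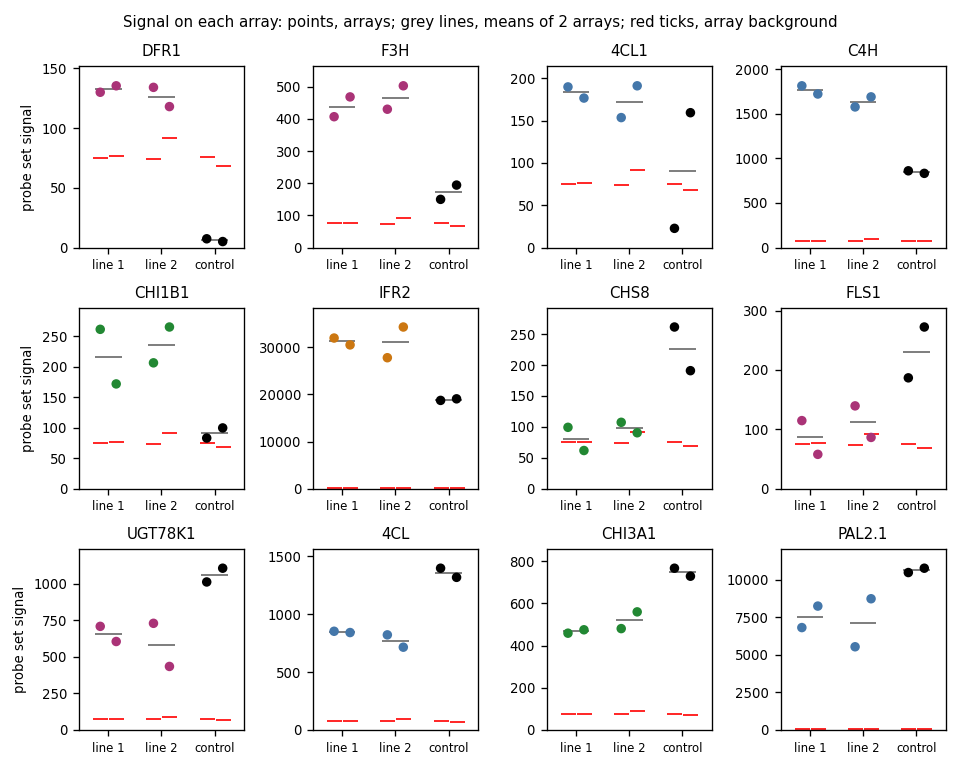
Probe set signal (linear axis from 0) on each array for 12 members, with RNAi line 1, RNAi line 2 and the control side by side. Points are arrays, grey lines the mean of the 2 arrays of a sample, and red ticks the background of each array. DFR1 is below background on both control arrays, the 4CL1 control arrays lie far apart, and CHS8, FLS1, UGT78K1, 4CL, CHI3A1 and PAL2.1 show higher signals in the control on the deposited scale (their differences turn above 0 with arrays scaled to the spikes).

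In the chalcone steps, 23 of 31 probe sets were tested and 0 were called by limma, with a median difference of 0.02. At an unadjusted p below 0.05, 5 stood higher and 4 lower, beside 18.5% and 14.7% of all tested probe sets. The chalcone synthase symbols were CHS1 and CHS8 only. Soybean chalcone synthase genes are a family of close copies, so these probe sets may read several of them, and their values are uncertain by gene. CHS1, which had 2 of its 7 probe sets tested, had 280.0 and 259 in line 1 and 262 and 286 in line 2, against 347 and 374 in the control at its brightest probe set. Each RNAi array was lower (difference -0.39, SE 0.10, adjusted p = 0.107; 1.06 when scaled to the spikes). The other tested CHS1 probe set, near background, had -0.20 and entered the test through the control alone.

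CHS8 had 4 of 5 probe sets tested, and they went apart. At the probe set with its lowest difference the signals were 99.3 and 61.8 in line 1 and 107 and 90.5 in line 2, against 261 and 191 in the control. Here every RNAi array was lower and 1 array of each line was below background (difference -1.20, SE 0.16, adjusted p = 0.0607; 0.17 when scaled to the spikes). This probe set entered the test through the control alone, where it is high, so its p-value is not independent of that choice. At the probe set with its highest difference the signals were 174 and 144 in line 1 and 100.4 and 90.4 in line 2, against 68.3 and 69.1 in the control. There every RNAi array was higher, line 1 more so than line 2 (difference 0.72, SE 0.32, adjusted p = 0.223). This one entered the test through line 1 alone, where it is highest. The remaining probe sets, above background on all 6 arrays, had -0.25, with every RNAi array lower, and 0.16, with overlapping arrays. The latter was the brightest of the gene, with 158 and 261 in line 1 and 238.5 and 223 in line 2, against 252 and 146 in the control. The name of the probe set with the highest difference ends in a suffix that marks, by the maker's naming, probes that may also bind unrelated transcripts.

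The chalcone reductases, which with CHS give the deoxychalcones of legumes, differed little. CHR1 had 0.25, CHR4 -0.27 and CHR5 -0.07, with standard errors between 0.10 and 0.15. All RNAi arrays were above the control for CHR1 and below it for CHR4, and they overlapped for CHR5.

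All 14 chalcone isomerase probe sets were tested. Those of CHI1B1 had the same direction throughout. At the probe set with the largest difference CHI1B1 had 262 and 172 in line 1 and 207 and 265 in line 2, against 83.2 and 99.8 in the control (difference 1.16, SE 0.12, adjusted p = 0.0517). At its brightest probe set it had 953 and 898 in line 1 and 1117 and 853 in line 2, against 646 and 637 in the control (difference 0.56, adjusted p = 0.0767). Both of these probe sets bear the suffix for probes that may also bind unrelated transcripts. The other CHI1B1 probe sets had 0.83 and 0.38, and those shared by CHI1B1 and CHI1B2 had 0.97 and 0.64. In each of these 6 probe sets, which read the same or near-identical transcripts and are not independent, every RNAi array was above both control arrays, and none reached the adjusted threshold.

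CHI1B1, an isomerase of the legume-specific type, lies directly between CHI1A and CHI2-A in the gene order of the RefSeq assembly Glycine_max_v4.0. These neighbours had smaller differences, 0.15 (SE 0.10) for CHI1A and 0.02 (SE 0.11) for CHI2-A, both with overlapping arrays. CHI2-A changed sign to -0.04 after quantile normalization and to -0.01 after median centring.

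CHI3A1, of a CHI-like type known in Arabidopsis for fatty-acid-binding proteins, was split by probe set. At 2 probe sets of the same name stem it had differences of -0.59 and -0.59, with 458 and 475 in line 1 and 480 and 559 in line 2, against 766 and 728 in the control at the brighter of them (adjusted p = 0.0824 and 0.0715; above 0, at 0.90 each, when scaled to the spikes). Both had every RNAi array lower, and the dimmer one bears the suffix for probes that may also bind unrelated transcripts. At its other probe sets, 1 of them the brightest of the gene over all arrays, the difference was -0.06 and 0.01 and the arrays overlapped. CHI4A, a CHI-like gene, had 9067 and 9021 in line 1 and 9061 and 9499 in line 2, against 8640 and 8998 in the control, every RNAi array slightly higher at a difference of 0.05 (SE 0.10, adjusted p = 0.729).

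In the anthocyanin and flavonol branch, 6 of 9 probe sets were tested. Of these, 2 were called higher and 0 lower, beside 1.05% and 0.594% of all tested probe sets. The median difference was 0.32, with 3 probe sets above 0 and 3 below. The median size of a difference was 1.05, beside 0.45 in the entry steps, 0.27 in the chalcone steps and 0.45 in the isoflavone branch. These contrasts between steps were not tested. DFR1, the dimmer F3H and an FLS1 probe set entered the test only through the side where they are high. The size of 1.05 is therefore not independent of the filter, and no conclusion about the steps is drawn from it. F3H, which adds the hydroxyl group that commits flavanones to this branch, rose at its brighter probe set. Its signals were 407 and 468 in line 1 and 430 and 503 in line 2, against 150 and 194 in the control, a difference of 1.32 (SE 0.11, adjusted p = 0.0492). The name of this probe set bears the suffix for probes shared by several transcripts. All RNAi arrays were above the control there, as they were at the dimmer F3H probe set. The dimmer one had 133 and 132 in line 1 and 102 and 149 in line 2, against 76.1 and 41.5 in the control (difference 0.98, adjusted p = 0.0531). With 1 control array below background, it entered the test through the RNAi lines alone, where it is high. Its p-value is not independent of that choice.

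DFR1, which reduces dihydroflavonols to the precursors of anthocyanins, rose in both lines. It had 130.0 and 135 in line 1 and 134 and 118 in line 2, against 7.32 and 5.01 in the control. Every RNAi array was above background and both control arrays were below it, so that the rise is at least 1.8-fold, taking each control array at its background. This bound was not itself tested, and the adjusted p of 0.0488 by limma belongs to the fitted difference given below. DFR1 entered the test through the RNAi lines alone, where it is high, so its p-value is not independent of that choice, and with no filter the adjusted p was 0.193. The fitted difference of 2.71 (SE 0.10) depends on the pseudocount, with 4.20 at a pseudocount of 1 and 1.46 at 64. DFR2 had signals of 7.88 to 61.6 on the RNAi arrays, against 14.9 and 43.7 in the control, below background throughout.

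ANS2, the next enzyme toward anthocyanins, had 60.0 and 108 in line 1 and 55.4 and 50.7 in line 2, against 44.1 and 32.9 in the control, above background on 1 array only and so not tested. ANR1, of proanthocyanidin synthesis, was below background on all 6 arrays, at 9.57 to 32.7 on the RNAi arrays, against 7.06 and 23.0 in the control. UGT78K1, known as an anthocyanidin glucosyltransferase, had 708 and 604 in line 1 and 729 and 434 in line 2, against 1011 and 1105 in the control. Each RNAi array was lower, with a difference of -0.79 (SE 0.14, adjusted p = 0.0724; 0.72 when scaled to the spikes).

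FLS1, which makes flavonols from the substrate that DFR also uses, had 115 and 57.9 in line 1 and 140 and 86.4 in line 2, against 187 and 272 in the control at 1 probe set. All RNAi arrays were lower and 1 array of each line was below background (difference -1.12, SE 0.20, adjusted p = 0.0714; 0.26 when scaled to the spikes). That probe set entered the test through the control alone, where it is high, so its p-value is not independent of that choice. At the other FLS1 probe set the arrays overlapped, with 177 and 91.3 in line 1 and 88.3 and 138 in line 2, against 166 and 143 in the control (difference -0.34, adjusted p = 0.186).

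In the isoflavone branch, 11 of 15 probe sets were tested and 0 were called by limma, with a median difference of 0.45. At an unadjusted p below 0.05, 6 stood higher and 0 lower, beside 18.5% and 14.7% of all tested probe sets. The isoflavone synthases, which move the aryl ring to form the isoflavone skeleton, had small differences. IFS2 had 9559 and 9584 in line 1 and 9399 and 9915 in line 2, against 8812 and 9774 in the control, a difference of 0.05 (SE 0.10, adjusted p = 0.746). IFS1 had 5477 and 5343 in line 1 and 5280 and 5438 in line 2, against 4541 and 4326 in the control, with all RNAi arrays higher (difference 0.28, SE 0.10, adjusted p = 0.163). IFS1 and IFS2 are near-identical genes, so that their probes may bind either transcript.

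HIDH, the dehydratase after IFS, had 4 tested probe sets. At 2 of them all RNAi arrays were higher, with differences of 0.59 and 0.45 (adjusted p = 0.0787 and 0.139). At the other 2 the arrays overlapped, with -0.03 and -0.04. The probe sets with 0.45 and -0.03 bear the same name stem and differ in the suffix that marks probes shared by several transcripts.

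IFR2, an isoflavone reductase gene by its symbol, gave signals of 31937 and 30482 in line 1 and 27767 and 34275 in line 2, against 18721 and 19053 in the control at 1 probe set. At another it had 29691 and 27740 in line 1 and 29004 and 35554 in line 2, against 21915 and 21189 in the control. Every RNAi array was above the control at both, with differences of 0.72 (SE 0.10, adjusted p = 0.0612) and 0.49 (SE 0.13, adjusted p = 0.105). A much dimmer IFR2 probe set had 0.09 with overlapping arrays.

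IFR1 had 105 and 132 in line 1 and 87.7 and 114 in line 2, against 14.9 and 45.9 in the control at 1 probe set. Both control arrays were below background, which makes the difference at least 1.51-fold. This probe set too entered the test through the RNAi lines alone (adjusted p = 0.0507, and 0.193 with no filter). At the other tested IFR1 probe set the arrays overlapped, with signals from 98.1 to 195 in the RNAi lines, against 107 and 78.5 in the control (difference 0.56, adjusted p = 0.0753). Both probe sets of the gene listed as IFR were below background on every array.

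The 19 members that were not tested had means over the 6 arrays of 12.6 to 58.5, and 17 of them were above background on no array. They were 5 CHS1 and 1 CHS8 probe sets, 2 IFR1 and 2 IFR, 2 PAL, and 1 each of 4CL4, CHR1, CHR3, DFR2, ANS2, ANR1 and CHIA1. Of the 52 tested, 2 (DFR1 and a probe set of IFR1) stayed under background on both control arrays, and 0 were below it on all RNAi arrays. Those 2 entered through the RNAi lines alone. So did 1 probe set each of 4CL1, 4CL3, CHS8 and F3H, which had 1 control array above background. Through the control alone entered 1 probe set each of CHS1, CHS8 and FLS1.

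Probe sets of a gene often gave different values. Of 14 genes with several tested probe sets, 10 had differences spread over more than 0.5 on the log2 scale, and 5 (PAL2.1, CHS8, CHI3A1, CHI4A and HIDH) had differences of both signs.

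The lines were also set against the control singly, in a fit of all 6 arrays with 3 residual degrees of freedom. These p-values measure technical spread only, since each group is 1 sample. In line 1, 10 members were called higher and 4 lower, beside 7.97% and 6.32% of all tested probe sets. In line 2, 9 members were called higher and 4 lower, beside 8.48% and 6.91%. Both comparisons use the same control sample, so their likeness is not independent evidence. Leaving out any 1 array took the counts to between 1 and 7 in line 1 and between 1 and 7 in line 2.

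The 11 members called in both lines stood beside 11.2% of all tested probe sets, and the lines had the same sign in all 11, as in 3078 of the 3080 such probe sets. They belonged to C4H, 4CL, CHS8, CHI1B1, CHI1B1 with CHI1B2, CHI3A1, F3H, DFR1 and IFR2. F3H had 1.28 (adjusted p = 0.0133) in line 1 and 1.37 (adjusted p = 0.0111) in line 2 by limma. DFR1 is given by its bound above, since its control arrays were below background. C4H had 1.05 (adjusted p = 0.00685) in line 1 and 0.94 (adjusted p = 0.0085) in line 2. The lower ones had -0.67 and -0.81 for 4CL, -1.34 and -1.06 for CHS8, and -0.66 and -0.51 at the brighter and -0.56 and -0.63 at the dimmer CHI3A1 probe set, line 1 before line 2, on the deposited scale. Scaled to the spikes all of these turned above 0, CHS8 to 0.02 in line 1 and 0.32 in line 2. 4CL1 was called in neither, with adjusted p-values of 0.252 and 0.274 for the probe set that rose in the main comparison.

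**Figure D4:**
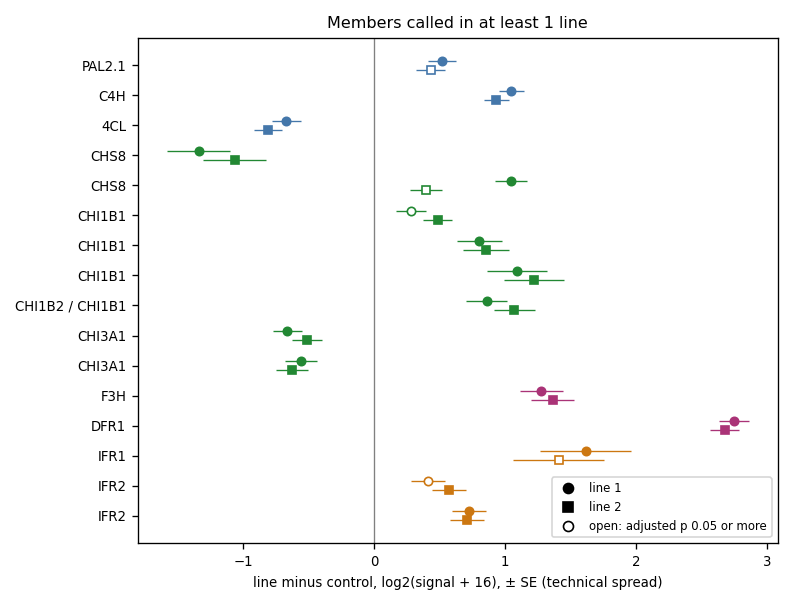
Difference from the control in log2(signal + 16) for line 1 (circles) and line 2 (squares), with standard errors from technical arrays, for the 16 members called in at least 1 line. Filled markers have an adjusted p below 0.05. Both lines lie on the same side of 0 for all 16 members, on the deposited scale; the negative ones turn with arrays scaled to the spikes, CHS8 only to 0.02 in line 1. DFR1 and IFR1 were below background in the control.

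Between the lines, line 2 against line 1, limma called 0 members and 0% of all tested probe sets. At an unadjusted p below 0.05 there was 1 member, beside 5.82% of all tested. It was the CHS8 probe set with the higher signals in the RNAi lines, with a difference of -0.65 (line 2 minus line 1) and an unadjusted p = 0.0027 by limma. This probe set entered the test through line 1 alone, where it is highest, so its p-value is not independent of that choice. Differences between the lines over the 52 tested members ran from -0.65 to 0.52. The median gap between the 2 arrays of a sample was 0.12 in line 1, 0.23 in line 2 and 0.15 in the control, on the log2 scale, so that smaller differences between lines could not be told from the technical spread.

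Genes that neighbour these steps were taken by symbol from a list of lignin, pterocarpan, isoflavone conjugation and regulator names. It held 39 probe sets of 22 genes, among them CYP93E1, of soyasaponin synthesis, and several numbered MYB genes that the pattern for MYB12 also matched. Of the 22 tested, limma called 0. At an unadjusted p below 0.05 there were 9 higher and 2 lower, beside 18.5% and 14.7% of all tested probe sets. The median difference was 0.17, against 0.02 over all tested probe sets.

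CYP98A2, the hydroxylase that leads from coumarate esters toward lignin, accounted for 6 of these probe sets. At its brightest it had 818 and 936 in line 1 and 760 and 723 in line 2, against 295 and 340 in the control (difference 1.30, SE 0.15, adjusted p = 0.0538). The RNAi arrays were above both control arrays there, and its other probe sets ran from -0.03 to 1.25. The brightest bears the suffix for probes that may also bind unrelated transcripts. The others with its name stem had -0.03 and 1.25. For the conjugation of isoflavones, the glucosyltransferase gene IF7GT had -0.36 (adjusted p = 0.131), while the malonyltransferase gene IF7MaT had -0.05, 0.04 and 0.63 at its probe sets, 0 of them called. MYB12A, whose namesake MYB12 regulates flavonol genes in Arabidopsis, had the largest difference of the list. At its brightest probe set it had 225 and 239 in line 1 and 282 and 446 in line 2, against 97.2 and 168 in the control (difference 1.07, SE 0.29, adjusted p = 0.116). At another it had 192 and 213 in line 1 and 262 and 362 in line 2, against 143 and 24.2 in the control (difference 1.73, SE 0.29, adjusted p = 0.0686). Every RNAi array was higher at both, with 1 control array below background at the second. That second probe set thus entered the test through the RNAi lines alone, where it is high, so its p-value is not independent of that choice. The remaining tested probe set of MYB12A had 0.27 with overlapping arrays. MYB176, known in soybean as a regulator of CHS8 and isoflavone synthesis, had 1171 and 1150 in line 1 and 1100 and 1169 in line 2, against 1075 and 1164 in the control, a difference of 0.04 (SE 0.10, adjusted p = 0.824). The MYB176 probe set and the brightest one of MYB12A also bear the suffix for probes that may bind unrelated transcripts.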

How the data were processed

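Total RNA of 3 samples was labelled by a one-cycle protocol and hybridised to 6 Affymetrix arrays, per the labels. The deposited values are linear intensity signals, 1 for each probe set, already scaled by the authors (after trimming 2% at each end the mean of every array was 500.1). Software and genome build: not given in the sources used here. Gene symbols are those of the platform annotation. All 36 gene records of the members were found in the RefSeq table, which gave gene order only.

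Members, lists and tests were chosen with earlier results of these data known. The deposited signals were taken as log2(signal + 16) and tested with limma 3.58.1 in R 4.3.3 (lmFit, eBayes, Benjamini-Hochberg). Both lines together were tested on 3 sample means (1 residual degree of freedom, prior 2.36), single lines on 6 arrays (3 residual, prior 2.35). Every member may be named, each gene with its brightest probe set and the others beside it. Probe sets with several symbols are given with all of them, in place of the probe set ID that the rule foresaw. Bounds set each dim array at its background or its signal, whichever was higher. The fits were tested on simulated data. The number of arrays, with 1 control sample, limits the precision.

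Alternatives were quantile normalization, median centring, poly-A spike scaling (12 probe sets), filters at no background and at its 99th percentile, pseudocounts of 1 and 64, an intensity trend, robust moderation, a replicate block, arrays as replicates, and leaving out each array in turn.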

Additional observations from a re-analysis of the deposited data

How the results depend on the processing

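In all, 3 members were called for the RNAi lines against the control, and this number moved with every alternative setting. It was 0 with robust moderation, a pseudocount of 1, no filter, median centring or quantile normalization, 17 with the 99th percentile filter or a pseudocount of 64, 26 with an intensity trend, 50 with poly-A spike scaling, 16 with the replicate number as a block and 19 with arrays as replicates (technical spread only), and 0 to 7 with 1 array left out. For line 1 (14) it was 50 with spike scaling, 4 with no filter, 9 with the replicate block and 1 to 7 with 1 array left out. For line 2 (13) it was 49, 4, 8 and 1 to 7 in the same order, and 20 with an intensity trend. For line 2 against line 1 it was 0 in every setting. The replicate numbers are technical arrays and do not pair samples: deviations of same-numbered arrays correlated at 0.02, -0.01 and 0.02.

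Over all tested probe sets that comparison gave 451 calls, 0 in the same settings, 3323 with the 99th percentile filter, 3547 with a pseudocount of 64, 8517 with an intensity trend, 26420 with spike scaling, 4485 with the replicate block and 5987 with arrays as replicates. It gave 0 without any 1 RNAi array, 1231 without control replicate 1 and 1884 without control replicate 2.

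Spike scaling turned these differences above 0: PAL2.1 to 0.98, 4CL to 0.77, CHS1 to 1.06 at both probe sets (1.059 and 1.060), CHS8 to 0.17 and 1.16, CHR4 to 1.18, CHR5 to 1.37, CHI3A1 to 0.90, 0.896 and 1.44 (1.435), CHI4A to 1.29, FLS1 to 0.26 and 1.01, UGT78K1 to 0.72, and HIDH to 1.46 and 1.44 (1.439). Quantile normalization turned 4CL4 with 4CL3 to -0.065, CHI2-A to -0.038 and CHI3A1 to -0.031, and median centring the last 2 to -0.007 and -0.010. The cause of these changes beyond the shift of whole arrays was not tested. With 1 array left out, differences that changed sign ran from -0.076 to 0.926 for 4CL2, -0.006 to 0.859 for 4CL3, -0.138 to 0.188 for 4CL4 with 4CL3, -0.214 to 0.248 for CHI2-A, -0.226 to 0.254 for CHI3A1, -0.205 to 0.108 for CHI4A, -0.205 to 0.526 for CHS8, -0.100 to 0.046 and -0.363 to 0.290 for HIDH, -0.081 to 0.267 for IFR2 and -0.024 to 0.125 for IFS2. The number of arrays and the single control sample limit all of these values.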
